A study of Mus musculus with 6 samples.

Results

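The genes of TGF-beta, BMP, GDF and activin signalling were followed in inguinal white adipose tissue, a fat depot under the skin of the mouse groin. They were taken by gene symbol, which gave 58 of the 24984 genes listed. These are 28 ligand genes, 12 receptor genes, 8 SMAD genes, 5 genes of secreted antagonists, 4 genes of latent TGF-beta binding proteins and the protease gene Bmp1. Bulk RNA sequencing was done on 6 libraries, 3 from Mpst knockout mice and 3 from wild-type mice, all on a high-fat diet. MPST, a sulfurtransferase of mitochondria and cytosol, is one of the enzymes that produce hydrogen sulfide. The series compares the genotypes to learn how fat tissue under this diet differs when MPST is missing. The sources used here do not give the strain, age, sex or time on the diet, the exons removed, or whether the deletion is limited to a tissue. Nothing in the labels states that each numbered replicate is its own animal, so p-values reflect only how far these samples scatter, and that scatter may be technical.

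The ligands of this family are secreted dimers that bring together a type I and a type II receptor, both serine/threonine kinases. The type I receptor then phosphorylates SMAD proteins, which join SMAD4 and enter the nucleus, with one set of SMADs serving TGF-beta and activin and another serving BMPs. TGF-beta is secreted in a latent form held in the matrix, and several secreted proteins bind ligands and keep them from their receptors. In fat, BMPs take part in the commitment of progenitors to adipocytes, TGF-beta in fibrosis, and the receptor ALK7, encoded by Acvr1c, in restraint of lipolysis in adipocytes.

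Mpst itself had 3, 10 and 9 raw counts in the knockout libraries and 1358, 1394 and 1624 in the wild-type libraries, so each library matched its label. Reads counted in genes numbered 8054560 to 22458630 in the knockout libraries and 17394489 to 21576075 in the wild-type libraries, with the smallest total in knockout replicate 1. Values below are CPM, counts scaled to one common normalised library size, where 1 count stood for 0.0424 to 0.119 CPM. The adipocyte genes Adipoq and Plin1 were abundant in every library, at 3535 to 5770 and 793 to 1263 CPM. Of 20 macrophage markers, 10 were called higher in the knockout and none lower, against 4.76% and 2.65% of all tested genes. Their summed level overlapped, at 15940 to 19990 CPM in the knockout and 11740 to 20000 CPM in wild type, and most of it was Lpl, which adipocytes also make. Without Lpl, left out after its values were seen, the sum was 2744 to 3038 CPM in the knockout libraries and 1004 to 1894 CPM in the wild-type libraries. The 14 adipocyte markers summed to 43200 to 51560 CPM in the knockout and 63040 to 73790 CPM in wild type. Of these, 3 were called lower and none higher, against 2.65% and 4.76% of all tested genes. The largest part of the sum was Fabp4, not called, at means of 24570 CPM in the knockout and 32410 CPM in wild type. Cfd, called lower, had means of 2324 and 9710 CPM. Between the groups 6 of the 14 markers overlapped, against 9386 of all 14065 tested genes. In 8 markers every knockout library lay below every wild-type library and in 0 above, against 15.5% and 17.8% of all tested genes. Skeletal muscle markers summed to 1867 CPM in knockout replicate 3 and 796 CPM in wild-type replicate 2, against 35.7 to 138 CPM in the other 4 libraries. In bulk tissue, a change in the share of a cell type and a change in RNA per cell cannot be told apart.

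Of the 46 members with enough counts to be tested, 3 rose in the knockout and none fell at an adjusted p under 0.05 (edgeR's quasi-likelihood test, adjusted over all 14065 genes tested). They were the ligand gene Gdf3, the type II receptor gene Tgfbr2 and the antagonist gene Fstl3. Across all tested genes 4.76% were called higher and 2.65% lower, so 3 of 46 (6.52%) is close to the share of all genes. At an unadjusted p under 0.05, 15 of the 46 members (32.6%) were higher and 2 lower, against 14.9% and 12.7% of all tested genes. DESeq2 called 6 of 46 members higher and none lower, against 7.80% and 6.49% of all its genes. By limma-voom, Gdf3, Tgfbr2 and Fstl3 were called higher and none lower, against 4.98% and 2.66%. In 13 of the 46 members (28.3%) every knockout library lay above every wild-type library, and in 2 every one lay below. Across all tested genes these shares were 17.8% and 15.5%. The median log2 fold change was 0.23 over the 46 members and 0.01 over all tested genes. Above 0 were 34 of the 46, against 50.5% of all tested genes. By role the medians were 0.20 for 19 ligands, 0.43 for 11 receptors, 0.16 for 7 SMADs, 0.22 for 4 antagonists and 0.10 for 4 latent TGF-beta binding proteins. The calls depended on single libraries, as did those over all genes. No member was called without knockout replicate 2 (0.00706% of all genes higher and 0.00706% lower), knockout replicate 3 (0.00709% and 0.0142%) or wild-type replicate 2 (none and 0.00695%). At an unadjusted p under 0.05, 12 of 45 members were higher and 2 lower without knockout replicate 2, against 11.1% and 10.1% of all genes. Without knockout replicate 3 they were 11 and 3 of 46 members, against 11.4% and 8.92%. Without wild-type replicate 2 they were 11 and 1 of 46 members, against 10.8% and 8.29%. Gdf3 alone was called without knockout replicate 1 (0.285% of all genes higher and 0.0348% lower), and Gdf3 and Tgfbr2 without wild-type replicate 1 (3.73% and 1.82%). Without wild-type replicate 3, 10 of 46 members were called higher and none lower (10.1% and 8.22% of all genes). Without the 2 libraries highest in muscle transcripts edgeR called none of 46 (0 genes higher and 0.00711% lower over all genes). At an unadjusted p under 0.05, that fit had 7 of 46 members higher and 0 lower, against 7.95% and 5.47% of all genes.

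**Figure D1:**
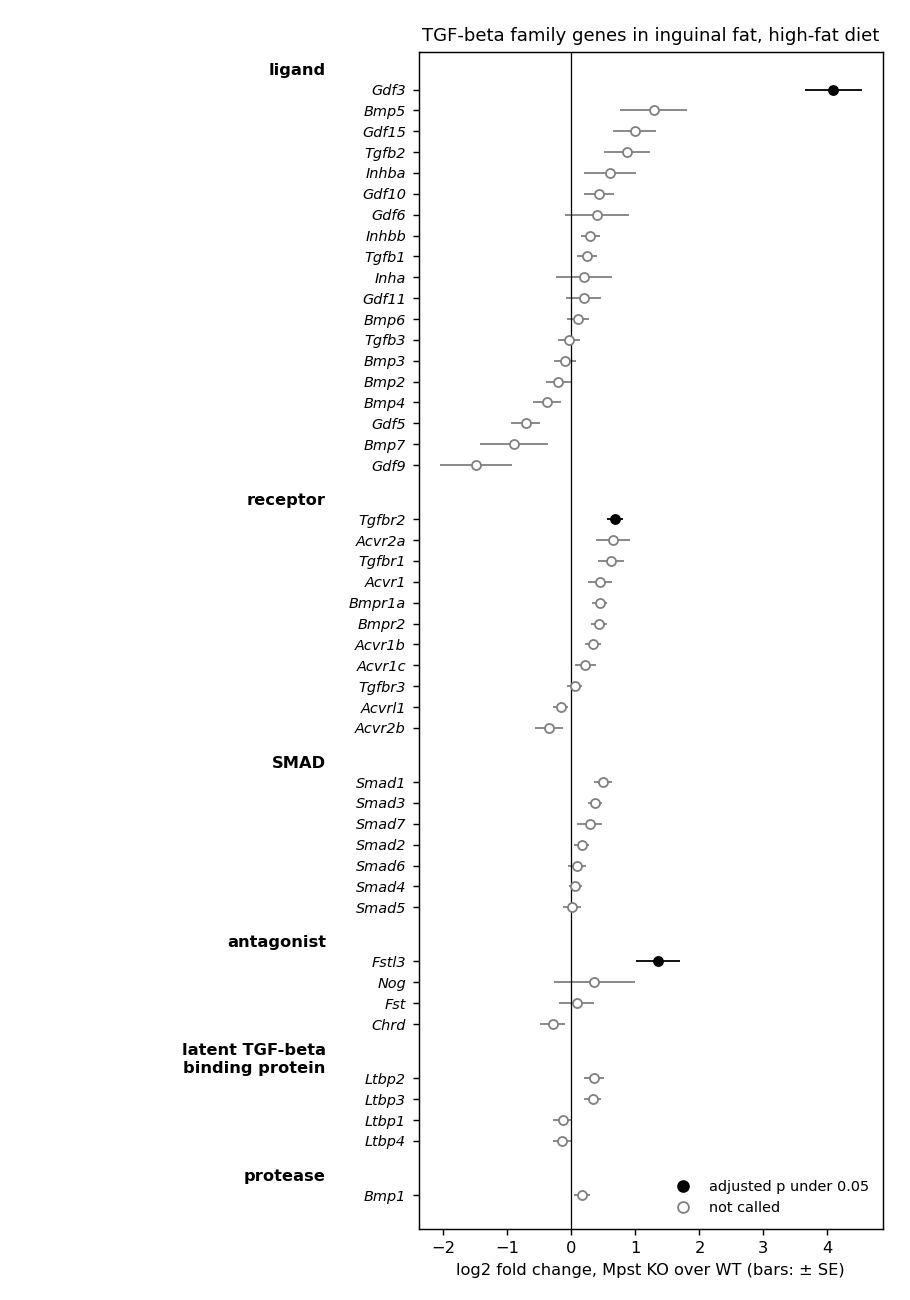
Log2 fold change of Mpst KO over WT (x axis) for the 46 tested members, grouped by role, with bars of ± SE and filled points for an adjusted p under 0.05. Gdf3 stands at 4.09, far to the right of the other 45. Above 0 lie 9 of the 11 receptors, against 50.5% of all tested genes.

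Gdf3 encodes a ligand that mouse adipose tissue macrophages are known to make and that can act through ALK7. Its raw counts were 67, 107 and 165 in the knockout libraries and 11, 5 and 4 in the wild-type libraries. In CPM these were 7.99, 4.71 and 7.003 in the knockout and 0.674, 0.304 and 0.186 CPM in wild type. The lowest knockout library lay well above the highest wild-type library, and knockout replicate 1 had more counts than any wild-type library at the smallest depth of all. Gdf3 rose 17.04-fold (log2 4.09, SE 0.44, edgeR adjusted p = 0.0119). With each library left out, the log2 fold change ranged from 3.72 to 4.74. The call ended without knockout replicate 2 (edgeR adjusted p = 0.0595), knockout replicate 3 (0.0502) and wild-type replicate 2 (0.0926), and the fold reached 26.6 without wild-type replicate 1. Beside it, 10 of 20 macrophage markers were called higher, against 4.76% of all tested genes. None of the 20 was at 0 in all libraries, and the median log2 fold change over that list was 0.998. Their part in the result was not tested. Gdf3 (ENSMUSG00000030117.5) lies on chromosome 6 from 122605403 to 122610087 on the minus strand of GRCm38.

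Per kilobase of exon, Gdf3 stood 8th of the 25 ligand genes with any count in the knockout (2.71 CPM per kb) and 17th in wild type (0.160 CPM per kb). Its knockout level was then close to that of Bmp2 and Bmp4, ligands that act on adipocyte progenitors, at 2.75 and 2.25 CPM per kb in the knockout. The most abundant ligand genes per kilobase were Inhbb, which encodes a subunit of activin B and is made by adipocytes, Tgfb1 and Bmp3. In CPM per kb, Inhbb stood at 14.9 ± 0.509 in the knockout and 12.1 ± 2.25 in wild type, Tgfb1 at 13.96 ± 1.265 and 11.8 ± 2.21, and Bmp3 at 13.7 ± 1.53 and 14.7 ± 3.19 (SD, n = 3 each). Within each genotype the libraries of these 3 genes overlapped, so their order was not set beyond that spread.

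**Figure D2:**
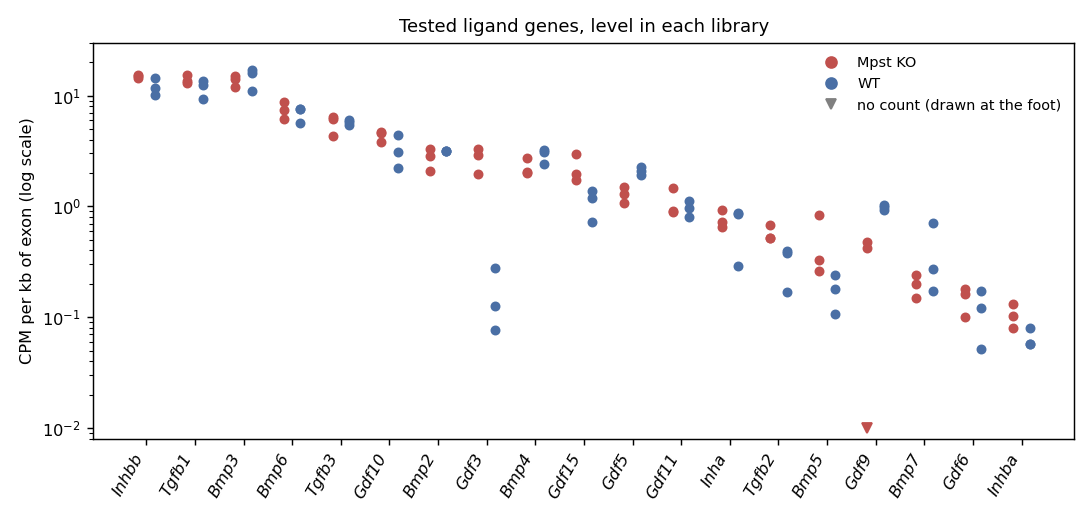
Level per kilobase of exon in CPM (log scale) of the 19 tested ligand genes in each Mpst KO library and each WT library, ordered by the KO mean. Inhbb, Tgfb1 and Bmp3 lead in both genotypes, the KO and WT points of Gdf3 are widely separated, and 1 KO library has no count of Gdf9.

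No other ligand passed the test. Gdf15 encodes a stress-induced cytokine that signals through GFRAL in the hindbrain and not through the classical receptors. Its level was 5.49, 3.61 and 3.18 CPM in the knockout and 2.21, 2.55 and 1.35 CPM in wild type, without overlap (log2 fold change 0.99, SE 0.33, edgeR adjusted p = 0.0998). Tgfb2 stood at 3.94, 2.99 and 3.01 CPM in the knockout against 2.27, 2.19 and 0.975 CPM in wild type, again without overlap (log2 fold change 0.87, edgeR adjusted p = 0.154). The genes of the other TGF-beta isoforms overlapped between the groups, Tgfb1 at 70.4 ± 6.38 CPM in the knockout and 59.4 ± 11.2 CPM in wild type and Tgfb3 at 18.9 ± 3.73 and 19.4 ± 0.932 CPM (SD, n = 3 each). Gfral, the gene of the Gdf15 receptor, was listed at 0 in all 6 libraries.

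Among the BMP genes, Bmp5 had the highest fold change but few counts, 28, 30 and 25 in the knockout and 7, 12 and 21 in wild type (log2 fold change 1.28, SE 0.52, edgeR adjusted p = 0.150). Knockout replicate 1 alone reached 3.34 CPM, while the others of that genotype were at 1.32 and 1.06 CPM, close to the 0.975 CPM of wild-type replicate 3. Bmp2, Bmp3, Bmp4, Bmp6 and Bmp7 overlapped between the genotypes. Their log2 fold changes lay between −0.90 for Bmp7 and 0.10 for Bmp6, with edgeR adjusted p from 0.289 to 0.749. Bmp4, which promotes commitment to adipocytes, stood at 6.08, 4.62 and 4.499 CPM in the knockout and 5.39, 7.29 and 6.92 CPM in wild type.

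Below 0, Gdf5 and Gdf9 separated the genotypes without passing the test. Gdf5, a ligand best known in joint development, was at 3.46, 2.99 and 2.50 CPM in the knockout and 4.84, 4.44 and 5.25 CPM in wild type (log2 fold change −0.72, SE 0.23, edgeR adjusted p = 0.0878). Gdf9, a ligand of the oocyte, had 0, 22 and 20 counts in the knockout and 34, 31 and 43 in wild type (log2 fold change −1.49, SE 0.56, edgeR adjusted p = 0.128). The knockout library without a count is the shallowest, where 3 counts, the limit that a count of 0 allows, are 0.358 CPM. Gdf10, which is also called Bmp3b, was at 24.4, 24.0 and 19.9 CPM in the knockout and 11.5, 16.0 and 23.1 CPM in wild type. Those values overlapped (edgeR adjusted p = 0.274), and Gdf10 was called without wild-type replicate 3 (log2 fold change 0.73, edgeR adjusted p = 0.0203).

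Of the activin and inhibin subunits, Inhbb stood at 63.4, 61.0 and 65.3 CPM in the knockout and 49.7, 42.9 and 61.8 CPM in wild type. Wild-type replicate 3 reached the knockout range, and Inhbb did not pass (log2 fold change 0.30, edgeR adjusted p = 0.219). Without that library it was called (log2 fold change 0.45, edgeR adjusted p = 0.0291). Inhba, of activin A, and Inha, the inhibin subunit that counters activin, stayed at or below 1.36 CPM in every library. The 9 ligand genes left untested for low counts were Bmp8a, Bmp8b, Bmp10, Bmp15, Gdf1, Gdf2, Gdf7, Inhbc and Inhbe, none with more than 5 counts in a library. Bmp10, Gdf1 and Inhbc had no count at all. All 1349 exonic bases of Gdf1 lie within exons of Cers1 on the same strand in the GENCODE M21 annotation, and Cers1 was also listed at 0, so reads of the 2 genes cannot be told apart.

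Among the receptors, Tgfbr2 rose. It encodes the type II receptor that binds TGF-beta. Its level was 109.5, 115 and 131 CPM in the knockout libraries and 81.7, 72.9 and 68.4 CPM in the wild-type libraries, and the groups did not overlap. The rise was 1.595-fold (log2 0.67, SE 0.12, edgeR adjusted p = 0.0231). With each library left out the log2 fold change ranged from 0.60 to 0.75. The call ended without knockout replicates 1, 2 or 3 or wild-type replicate 2, with edgeR adjusted p of 0.0714, 0.0794, 0.0778 and 0.119. Tgfbr2 lies on chromosome 9 from 116084293 to 116175360 on the minus strand, and Fstl3 on the plus strand of chromosome 10, at 79777272 to 79782630, both in GRCm38. The promoters of these called members are shown because SMADs bind the letters CAGAC, or GTCTG on the other strand, which are in capitals. They are the 250 bases before the RefSeq start, 5′ to 3′ on the strand of the gene, from RefSeq on GRCm38.p6 (chr9:116175364-116175613 and chr10:79777024-79777273).
Tgfbr2: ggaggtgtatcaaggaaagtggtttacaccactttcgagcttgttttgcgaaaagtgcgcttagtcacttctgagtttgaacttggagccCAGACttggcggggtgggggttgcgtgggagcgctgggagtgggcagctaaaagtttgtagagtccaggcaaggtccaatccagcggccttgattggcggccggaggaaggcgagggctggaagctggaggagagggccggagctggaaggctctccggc
Fstl3: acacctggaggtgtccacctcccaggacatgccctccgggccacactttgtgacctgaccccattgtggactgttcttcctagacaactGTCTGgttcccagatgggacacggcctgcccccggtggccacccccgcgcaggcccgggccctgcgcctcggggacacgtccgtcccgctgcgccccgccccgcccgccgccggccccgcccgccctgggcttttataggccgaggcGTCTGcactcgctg
The letters occurred once in the Tgfbr2 window, as CAGAC. In the Fstl3 window they occurred at 2 places, both as GTCTG, one of them close to the start. RefSeq gives 32851 windows of this length, and 42.2% of them held the letters at least once, so their presence is common. The letters were at 2 or more places in 11.7% of the windows. Counted per gene and not per window, 22 of the 42 members with an entry held them in at least 1 window. A match is a description of the letters and not a binding site, and Gdf3 has no window to show.

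The type I receptor of TGF-beta pairs with that encoded by Tgfbr2. Its gene Tgfbr1 was at 25.3, 31.5 and 31.0 CPM in the knockout against 23.3, 13.1 and 20.9 CPM in wild type. The groups did not overlap, but wild-type replicate 1 was within 2 CPM of knockout replicate 1 (log2 fold change 0.62, SE 0.21, edgeR adjusted p = 0.0992). Tgfbr3, the co-receptor betaglycan, had the highest mean level per kilobase of the receptor genes in both genotypes. In wild type its libraries overlapped those of Acvrl1, so that order was not set there. Tgfbr3 was nearly level between the genotypes, at 147 ± 13.0 CPM in the knockout and 142 ± 8.26 CPM in wild type (SD, n = 3 each; edgeR adjusted p = 0.815).

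The BMP receptor genes Bmpr1a and Bmpr2 were higher in every knockout library than in any wild-type library. Bmpr1a, a type I receptor that takes part in adipocyte commitment, was at 96.0, 91.0 and 81.7 CPM in the knockout and 70.1, 68.3 and 59.6 CPM in wild type (log2 fold change 0.44, SE 0.12, edgeR adjusted p = 0.0602). Bmpr2, the type II receptor, was at 96.9, 101 and 86.4 CPM in the knockout and 75.6, 63.1 and 72.9 CPM in wild type (log2 fold change 0.43, SE 0.12, edgeR adjusted p = 0.0667). Neither passed edgeR's test, while DESeq2 called both. Bmpr1a passed edgeR's test when only genes of at least 5 CPM on average were kept (edgeR adjusted p = 0.0485), and Bmpr2 passed without wild-type replicate 3 (edgeR adjusted p = 0.0399). Bmpr1b had 0, 11 and 6 counts in the knockout and 1, 2 and 0 in wild type and was not tested. Acvrl1, the endothelial type I receptor ALK1 for BMP9 and BMP10, was at 77.5 ± 0.709 CPM in the knockout and 87.0 ± 9.20 CPM in wild type (SD, n = 3 each; log2 fold change −0.17, edgeR adjusted p = 0.392). The gene of one of its ligands, Gdf2, which encodes BMP9, had 2 counts in all, and Bmp10 had none.

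Acvr1c encodes ALK7, the type I receptor of adipocytes through which Gdf3 and activin B can act. It was at 59.97, 80.6 and 79.5 CPM in the knockout and 64.2, 52.6 and 73.5 CPM in wild type. Knockout replicate 1 lay below 2 of the wild-type libraries, and Acvr1c did not pass (edgeR adjusted p = 0.434, log2 fold change 0.21, SE 0.16). Leaving out each library gave log2 fold changes of 0.09 to 0.34. Acvr1b, the activin type I receptor ALK4, was at 30.6 ± 2.92 CPM in the knockout and 24.2 ± 1.38 CPM in wild type (SD, n = 3 each; log2 fold change 0.34, edgeR adjusted p = 0.123), without overlap. Acvr1, the type I receptor ALK2, was at 24.9, 21.7 and 25.5 CPM in the knockout against 14.3, 16.0 and 22.5 CPM in wild type, where replicate 3 reached the knockout range (edgeR adjusted p = 0.156, and 0.0142 without that library). The activin type II receptor genes lay on opposite sides of 0, Acvr2a at a log2 fold change of 0.64 (SE 0.27, edgeR adjusted p = 0.159) and Acvr2b at −0.35 (SE 0.22, edgeR adjusted p = 0.329), and both overlapped. In 446 of its 5686 exonic bases Acvr2a lies opposite Orc4, whose reads there cannot be told apart. Acvr2a was called without wild-type replicate 3 (log2 fold change 0.96, edgeR adjusted p = 0.0173).

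**Figure D3:**
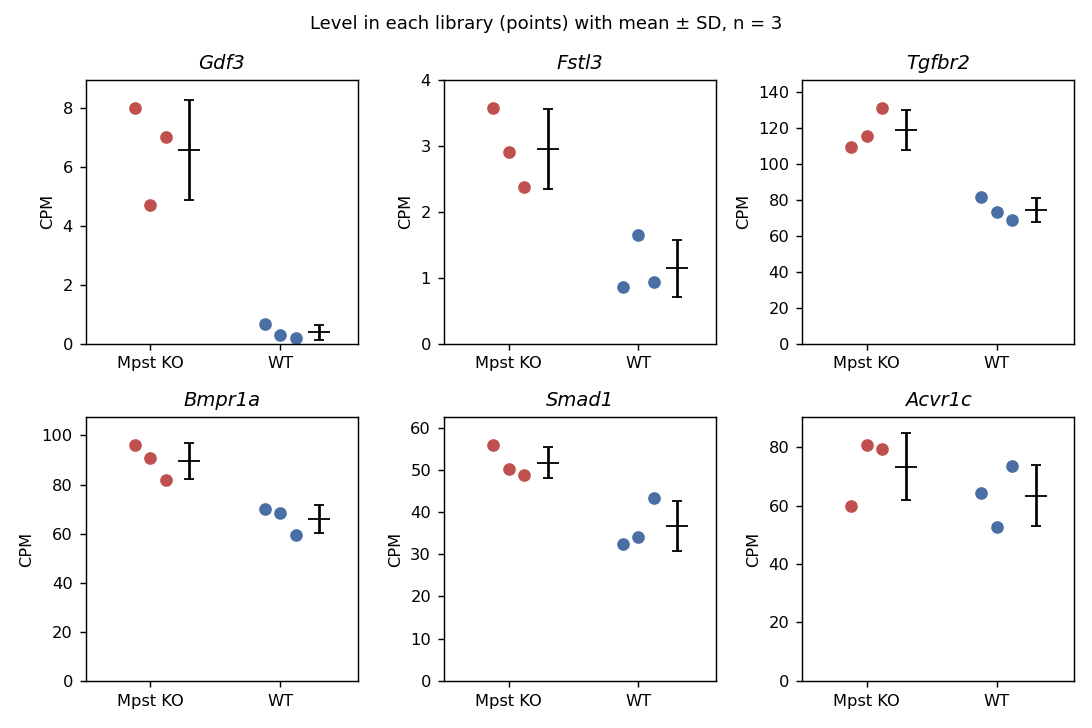
CPM in each Mpst KO library and each WT library (points, replicates 1 to 3 from left to right) with mean ± SD for 6 members. KO and WT do not overlap for Gdf3, Fstl3, Tgfbr2, Bmpr1a and Smad1, of which Gdf3, Fstl3 and Tgfbr2 passed the test, and they overlap for Acvr1c.

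None of the 7 tested SMAD genes passed edgeR's test. Higher at an unadjusted p under 0.05 were 2 of them, Smad1 and Smad3, against 14.9% of all tested genes. Smad1, which is phosphorylated by BMP receptors, was at 55.8, 50.3 and 48.9 CPM in the knockout and 32.4, 34.1 and 43.4 CPM in wild type, without overlap (log2 fold change 0.49, SE 0.14, edgeR adjusted p = 0.0658). DESeq2 called it higher and limma-voom did not, and edgeR did without wild-type replicate 3 (log2 fold change 0.64, edgeR adjusted p = 0.00957). Smad3, which carries TGF-beta and activin signals, was tightly grouped at 33.5, 32.9 and 33.8 CPM in the knockout and 27.3, 24.3 and 26.0 CPM in wild type (log2 fold change 0.37, SE 0.11, edgeR adjusted p = 0.0762). Smad2, its partner for the same signals, overlapped between the groups (log2 fold change 0.16, edgeR adjusted p = 0.410). Smad5, the other abundant BMP SMAD gene, was at 70.6 ± 2.39 CPM in the knockout and 70.4 ± 11.9 CPM in wild type (SD, n = 3 each), and Smad4, the shared partner, at 67.5 ± 3.32 and 64.7 ± 1.57 CPM. The inhibitory Smad6 and Smad7, which BMP and TGF-beta signals induce, overlapped at log2 fold changes of 0.09 and 0.28. Smad9 had 3 to 8 counts per library and was not tested.

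Fstl3 encodes a follistatin-like protein that binds and blocks activins and myostatin. It was at 3.58, 2.90 and 2.38 CPM in the knockout and 0.858, 1.64 and 0.929 CPM in wild type, from 30, 66 and 56 counts and 14, 27 and 20 counts. The groups did not overlap, and Fstl3 rose 2.55-fold (log2 1.35, SE 0.34, edgeR adjusted p = 0.0490). The call was at the threshold and ended with relative log expression scaling (edgeR adjusted p = 0.0527), without robust estimation (0.0519), with all libraries thinned to the smallest (0.0592), and in 5 of the 6 fits that left out a library (0.105 to 0.153), wild-type replicate 3 being the exception. Its log2 fold change stayed between 1.20 and 1.69 in those 6 fits. Of its 2445 exonic bases 1157 lie opposite Prss57, and the kit does not mark strand, so reads of the 2 genes cannot be told apart there. Prss57 had 1 to 4 counts per library.

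The other antagonist genes did not pass. Fst encodes follistatin, which also blocks activin. It was at 17.2, 24.8 and 13.6 CPM in the knockout and 13.2, 15.5 and 23.9 CPM in wild type, with wide overlap (edgeR adjusted p = 0.877). Chordin (Chrd) and noggin (Nog), which bind BMPs, had log2 fold changes of −0.29 (SE 0.19) and 0.36 (SE 0.63), with edgeR adjusted p of 0.349 and 0.752. Nog was at 0.325 CPM in wild-type replicate 3 and 1.40 to 3.04 CPM in the other 5 libraries. Grem1, gremlin, had no count.

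The latent TGF-beta binding proteins hold TGF-beta in the matrix, and the genes of the 4 differed widely in level. Ltbp3 was at 578, 524 and 473 CPM in the knockout and 427, 389 and 431 CPM in wild type, without overlap (log2 fold change 0.34, SE 0.13, edgeR adjusted p = 0.142). Ltbp4 was at 194 ± 31.2 CPM in the knockout and 214.5 ± 20.3 CPM in wild type (SD, n = 3 each), and Ltbp1 and Ltbp2 overlapped as well, at log2 fold changes of −0.14 and 0.36. Ltbp2, which does not bind latent TGF-beta, was called without wild-type replicate 3 (log2 fold change 0.52, edgeR adjusted p = 0.0306). Bmp1 is no ligand but a metalloprotease that trims procollagens and chordin. It was at 83.1, 75.7 and 86.5 CPM in the knockout and 80.1, 74.0 and 64.3 CPM in wild type (edgeR adjusted p = 0.415).

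A list of 95 further genes of the pathway was read in the same fit. Of the 80 tested, 11 rose and 2 fell, against 4.76% and 2.65% of all tested genes, and the median log2 fold change was 0.15. The calls again depended on single libraries, as did those over all genes. Of the 11 that rose, 1 kept its call without knockout replicate 1, 0 without knockout replicate 2, knockout replicate 3 or wild-type replicate 2, and all 11 without wild-type replicates 1 or 3. Over all genes, 0.285%, 0.00706% and 0.00709% were called higher without knockout replicates 1, 2 and 3. Without wild-type replicates 1, 2 and 3 the shares were 3.73%, 0% and 10.1%. None of the 11 kept its call without the 2 libraries highest in muscle transcripts, where 0 of all genes were called higher. In none of these fits did any of the 11 change sign.

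Of 25 SMAD target genes, 4 were called higher and none lower by edgeR, against 4.76% and 2.65% of all tested genes. Above 0 were 20 of the 25, against 50.5% of all tested genes. Id2, a helix-loop-helix inhibitor, rose 1.89-fold, at 19.1, 25.7 and 24.7 CPM in the knockout and 11.3, 13.3 and 12.4 CPM in wild type (edgeR adjusted p = 0.0188). Periostin (Postn), a matrix protein, rose 1.99-fold and the collagen gene Col3a1 1.65-fold (edgeR adjusted p = 0.0187 and 0.0451). The other Id genes on the list, Id1, Id3 and Id4, were not called. Id1 was at 36.4, 44.4 and 58.0 CPM in the knockout and 49.5, 56.1 and 70.5 CPM in wild type (log2 fold change −0.34, edgeR adjusted p = 0.287). Id3 had a log2 fold change of −0.21 (edgeR adjusted p = 0.310) and Id4 of 0.16 (edgeR adjusted p = 0.670). Also among the uncalled targets, Ccn2, Pmepa1 and Tgfbi had log2 fold changes of 0.24, 0.28 and 0.00, with edgeR adjusted p of 0.461 to 0.992. Cdkn1a and Tsc22d1 had log2 fold changes of 0.65 and 0.37 (edgeR adjusted p = 0.1442 and 0.1655). At an unadjusted p under 0.05, 6 of the 25 targets were higher and 1 lower, against 14.9% and 12.7% of all tested genes.

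Outside the cell, thrombospondin 1 (Thbs1), which can activate latent TGF-beta, rose 2.50-fold, at 76.1, 61.9 and 59.3 CPM in the knockout and 21.1, 26.1 and 31.6 CPM in wild type (log2 1.32, SE 0.17, edgeR adjusted p = 0.0128). It was the only one called of 14 tested genes of latent TGF-beta activation, against 4.76% higher and 2.65% lower of all tested genes. Crim1, a membrane protein that binds BMPs, rose 1.94-fold, at 48.8, 53.8 and 62.2 CPM in the knockout and 25.0, 27.7 and 32.3 CPM in wild type (log2 0.96, SE 0.14, edgeR adjusted p = 0.0152). Decorin (Dcn), a proteoglycan that binds TGF-beta, rose 1.69-fold (edgeR adjusted p = 0.0313). Dcn and Col3a1 are also on the list of 12 progenitor and fibroblast markers. Of those 12, 3 were called higher and none lower, against 4.76% and 2.65% of all tested genes. Over that list 8 of the 12 were above 0 and 4 below, with a median log2 fold change of 0.08. It summed to 5093 to 6134 CPM in the knockout and 3319 to 4544 CPM in wild type, a sum carried mostly by Col3a1 and Dcn themselves. Without those 2 genes, left out after their values were seen, the sums overlapped, at 1741, 1905 and 2014 CPM in the knockout and 1877, 1591 and 1235 CPM in wild type. The part of these cells in the results was not tested.

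Inside the cell, 4 of 21 tested SMAD regulators rose and none fell by edgeR, against 4.76% and 2.65% of all tested genes. With an unadjusted p under 0.05 there were 6 higher and 1 lower, against 14.9% and 12.7% of all tested genes. Skil encodes SnoN, a SMAD repressor that TGF-beta itself induces, and rose 1.70-fold (20.98, 23.9 and 23.3 CPM in the knockout and 17.2, 11.7 and 11.3 CPM in wild type; edgeR adjusted p = 0.0419). The ubiquitin ligase genes Nedd4l and Wwp1 rose 1.52-fold and 1.55-fold (edgeR adjusted p = 0.0311 and 0.0241), and Zeb2, a SMAD-binding repressor that macrophages also express, rose 1.62-fold (edgeR adjusted p = 0.0311). The ubiquitin ligase genes Smurf1 and Smurf2 had log2 fold changes of −0.11 and 0.34 and were not called.

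The only calls toward lower levels were 2 of the 10 tested genes of other receptors and co-receptors. None of these 10 was called higher, against 4.76% higher and 2.65% lower of all tested genes. Above 0 were 4 and below 0 were 6 of the 10, with a median log2 fold change of −0.20. Amhr2, the type II receptor of anti-Müllerian hormone, fell to 3.34, 2.38 and 2.97 CPM in the knockout, against 7.23, 7.66 and 4.55 CPM in wild type (log2 fold change −1.18, SE 0.27, edgeR adjusted p = 0.0382). Rgma, a BMP co-receptor, fell to 35.2, 30.02 and 31.9 CPM in the knockout, against 46.4, 46.9 and 42.7 CPM in wild type (log2 fold change −0.49, SE 0.12, edgeR adjusted p = 0.0407). Each of the 2 kept its call in 1 of the 6 fits that left out a library. Endoglin (Eng), the endothelial co-receptor, and the pseudoreceptor gene Bambi had log2 fold changes of −0.25 and 0.04 and were not called.

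**Figure D4:**
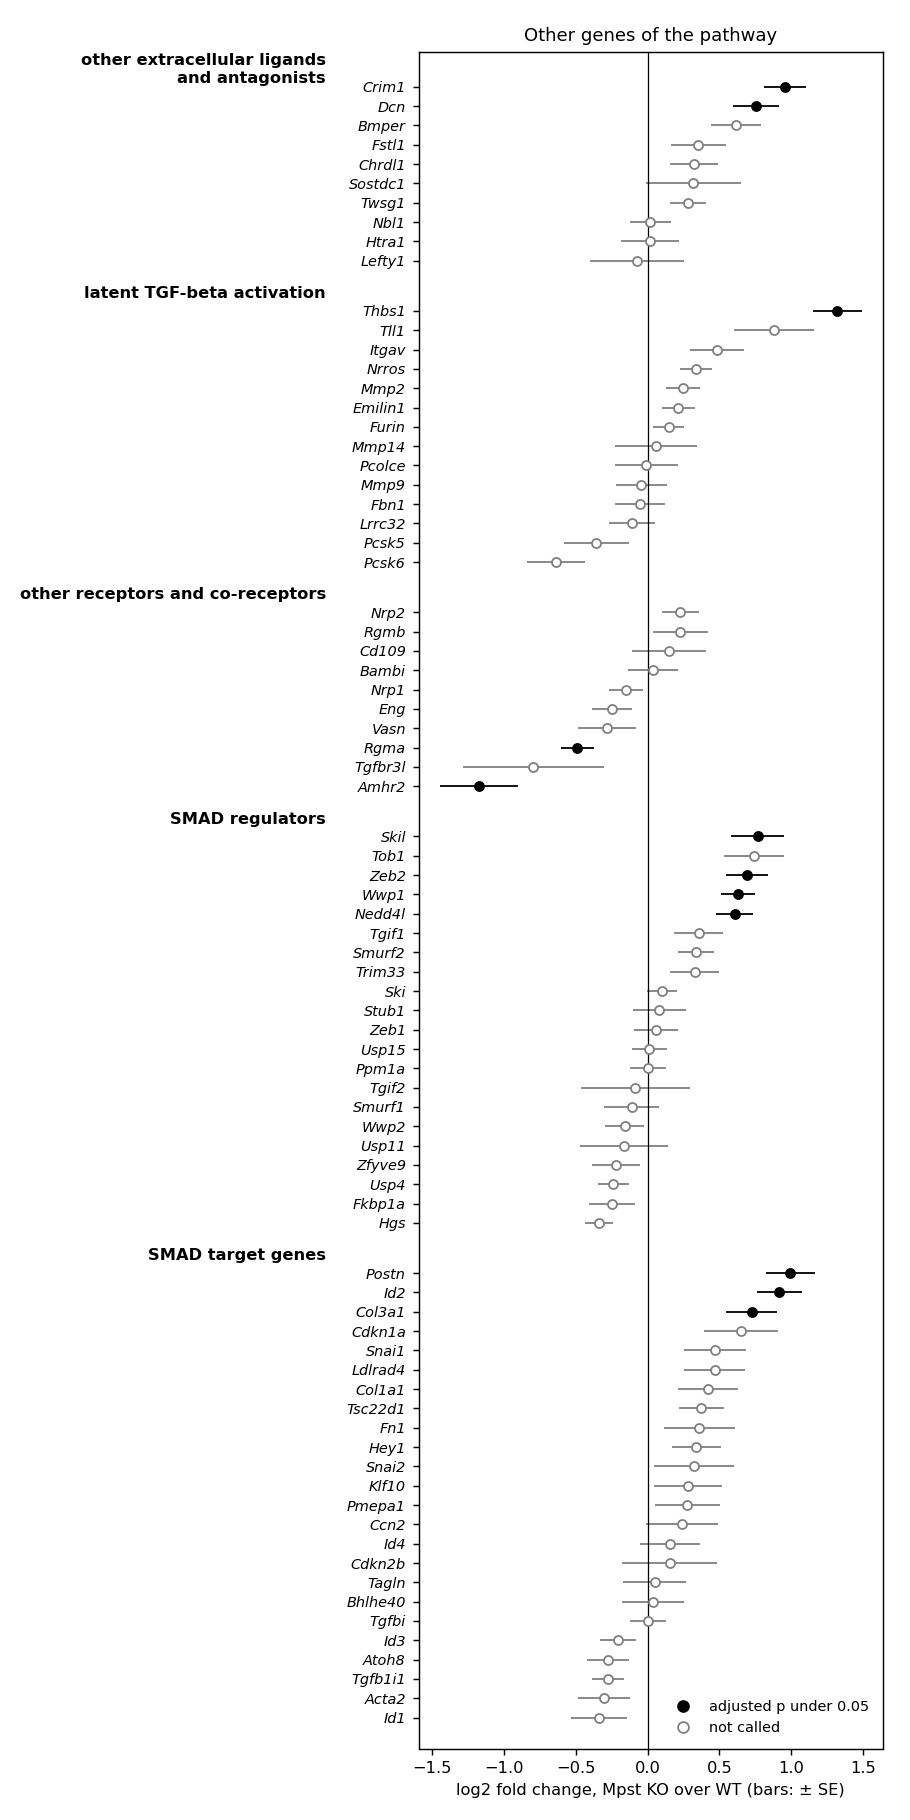
Log2 fold change of Mpst KO over WT (x axis) for 79 of the 80 tested further genes of the pathway, by sub-list, with bars of ± SE and filled points for an adjusted p under 0.05. The 10 filled points above 0 include Thbs1 at 1.32 and Postn at 0.99, and the 2 below 0 are Amhr2 and Rgma.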

How the data were processed

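TRIzol RNA went into TruSeq RNA v2 libraries, a kit without strand marking, read as 75 bp single ends, per the labels' protocols. Named in the submitters' processing notes are mm10 as the build and HISAT2 2.1.0, HTSeq 0.13.5 and DESeq2 1.26 as tools. Not given in the sources used here: which annotation, and how HTSeq was set. What the authors deposited are raw counts per gene symbol, with 5 summary lines per file that were left out. Reads assigned to no feature were 8.85% to 14.7% and ambiguous reads 1.63% to 1.83% of the reads in genes and these 2 lines together.

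The fit used edgeR 4.0.16 under R 4.3.3: filterByExpr (14065 genes left), trimmed mean of M-values scaling, robust quasi-likelihood F test, Benjamini-Hochberg adjustment over all tested genes, called under 0.05. Standard errors (SE) were taken as |log2 fold change|/√F. The test was tried on simulated data. No pair of replicates agreed within sampling noise. Members, lists and the rule for named genes were chosen with earlier results of these data known. The rule takes Mpst, called members, the 2 smallest p in each role, Acvr1c and called pathway genes. Other genes were named after their values were seen. A result on 1 listed gene is not reported here. Exon lengths and positions came from GENCODE M21, on GRCm38 (mm10). The floor of 3 counts for a count of 0 covers counting error only. Alternatives were other scalings, DESeq2 1.42.0, limma-voom (limma 3.58.1), other low-count filters, a replicate block, no robust estimation and each library left out. Chosen after seeing the data were a fit without the pair of libraries richest in muscle transcripts (knockout replicate 3 and wild-type replicate 2) and one with every library thinned to the smallest.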

Additional observations from a re-analysis of the deposited data

How the results depend on the processing

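Of the members, 6 were called higher with DESeq2, 9 with the replicate block, 0 without the 2 libraries highest in muscle transcripts, and 0 to 10 with each library left out, against 3 in the main analysis. None was called lower under any alternative. With relative log expression scaling, without robust estimation and when thinned, Gdf3 and Tgfbr2 alone were called higher. With at least 5 CPM on average, Bmpr1a and Tgfbr2 alone were called higher. For the further pathway genes, 0 were called higher without the 2 muscle-rich libraries and 0 to 14 with each library left out, against 11. Those called lower numbered 4 with DESeq2, 4 with the block, 1 with at least 5 CPM on average, 0 without the muscle-rich libraries and 0 to 3 with each library left out, against 2. Over all genes, 669 were higher and 373 lower (4.76% and 2.65%), against 1074 and 894 with DESeq2 (7.80% and 6.49%). With the block they were 1387 and 1289 (9.86% and 9.16%), and with at least 5 CPM on average 617 and 371 (5.63% and 3.39%). Without the muscle-rich libraries they were 0 and 1, and with each library left out 0 to 1434 and 1 to 1167. Fits that leave out libraries have fewer samples; the other causes were not tested. The replicate numbers are not known to pair animals: the correlations of same-numbered libraries' deviations from their group means were 0.171, −0.099 and 0.303, and knockout replicate 2 correlated best with wild-type replicate 1 (0.357).

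No called member or called pathway gene changed sign. Uncalled members did. Without the muscle-rich libraries, the log2 fold change was 0.11 for Bmp3, −0.10 for Gdf11, −0.32 for Inha and −0.0061 for Smad5. Smad5 was also at −0.0113 with relative log expression scaling, −0.0116 with DESeq2, −2e-04 with no low-count filter and −0.0045 when thinned, where Tgfb3 was at 0.0045. With each library left out the ranges were −0.26 to 0.0198 for Bmp3, −0.0323 to 0.22 for Bmp6, −0.11 to 0.32 for Gdf11, −0.15 to 0.42 for Inha, −0.13 to 0.12 for Tgfb3, −0.0244 to 0.10 for Tgfbr3, −0.12 to 0.12 for Smad5, −0.0077 to 0.21 for Smad6, −0.20 to 0.38 for Fst and −0.16 to 0.86 for Nog. Gdf3, Fstl3 and other members under 5 CPM on average have no value under that filter. Depth limits low-count genes most in knockout replicate 1.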

Other observations

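Hjv, which encodes the BMP co-receptor hemojuvelin, known from skeletal muscle and liver, had 2, 1 and 251 counts in knockout replicates 1, 2 and 3 and 5, 82 and 8 in wild-type replicates 1, 2 and 3. The highest counts of each genotype stood in the libraries with the highest summed muscle markers, 1867 CPM in knockout replicate 3 and 796 CPM in wild-type replicate 2. Hjv did not enter the test. Mstn, the gene of myostatin, which Fstl3 blocks, had 3, 8 and 20 counts in the knockout and 9, 3 and 2 in wild type and was not tested either.

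Some ligand genes known from the germ line had reads in this fat depot. Gdf9, known from the oocyte, had 20 or more counts in 5 of the 6 libraries, while Bmp15, its oocyte partner, had at most 3 in any.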
